A study of Mus musculus with 36 samples.

Results

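Imprinted genes were followed through the metabolic labelling experiment as a panel of 10 symbols: the noncoding Meg3, Rian and Mirg and the coding Peg3, Peg10, Mest, Snrpn, Impact, Grb10 and Igf2r. Members were taken by symbol from the rows of all 6 deposited tables, and 9 of the 10 were found there, among 18419 genes listed in all tables; Rian had no row and is not analysed here. The cells were mouse embryonic stem (mES) cells of a Cast x 129S cross, in which a TetOn promoter drives Xist from the 129S allele. In each of 3 lines an FKBP12 F36V degron tag had been fused to an endogenous protein of the m6A or RNA decay machinery. METTL3 (clone 12D) is the m6A methyltransferase, YTHDC1 (clone Y12H) a nuclear reader of m6A, and ZCCHC8 (clone Z12H) a subunit of the nuclear exosome targeting complex. Each line is 1 clone, so clone, tagged protein and any difference in handling cannot be told apart in comparisons between lines. The dTAG arm received dTAG-13, which triggers degradation of the tagged protein, from 2 h before doxycycline, and the Ctrl arm did not. Both arms of every line received 1 µg/ml doxycycline for 20 h and then 500 µM 4sU with doxycycline for 4 h, followed by 0, 90 or 180 min in 50 mM uridine. With 2 replicates, this gave 36 libraries in 18 groups, or 6 libraries per arm and line. Depletion acts on the protein, so the mRNA of the tagged gene does not check it.

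Imprinted genes are expressed mainly from the allele inherited from one parent, because DNA methylation laid down in the germ line marks one copy of a control region. Meg3, Rian and Mirg are maternally expressed noncoding RNAs of the Dlk1-Dio3 cluster and host small nucleolar RNAs and microRNAs, whereas Peg3, Peg10, Mest, Snrpn and Impact are paternally expressed and Igf2r is maternally expressed in most mouse tissues. Imprints can be lost in culture, and the Dlk1-Dio3 cluster is known to vary between stem cell clones. The measurements below are summed over both alleles. In these bulk samples, fewer cells expressing a gene and less of its RNA per cell cannot be told apart.

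Read totals over listed genes ran from 5274684 to 18652000 per library and were lowest in the ZCCHC8 line (5274684 to 10257631). Levels are given as CPM, read counts scaled to the total of their library after that total was adjusted by its edgeR TMM factor. Replicates of every group differed beyond counting noise (chi-square over degrees of freedom, 2.34 to 72.6). The study describes its RNA-seq replicates as independent repeats, here of 1 clone per line, in which the wells for all conditions came from one batch of cells. The main fits had no replicate term and treated the 6 libraries of an arm and line as independent, though they came from 2 repeats. Their p-values therefore mix the spread between repeats of a clone with that between wells of a repeat. The METTL3 Ctrl 0 min library of replicate 1 stood apart. It scored -0.0527 on the first principal component of its line, whereas the other replicate 1 libraries scored 0.243 to 0.477 and replicate 2 scored -0.348 to -0.153. Summed levels of 12 embryonic stem cell markers were 3082 to 4843 CPM in every arm and line, and those of 15 feeder fibroblast markers 51.9 to 126 CPM.

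Promoters of imprinted genes are often built on CpG-rich sequence, and ZFP57, which protects imprints in mES cells, reads the letters TGCCGC when their CpG is methylated. RefSeq promoter windows (GRCm38.p6, 250 bases before to 50 bases after a start) were available for several starts of the panel's genes. The hexamer, on either strand, was in 11.6% of all 32851 windows. It was found in 1 of 2 Meg3 windows, 2 of 3 Mest windows, 1 of 4 Snrpn windows and 1 of 2 Grb10 windows. The single Mirg, Peg3 and Igf2r windows did not hold it. The letters TGACGTCA, a cyclic AMP response element, were in 1.79% of windows and were found at Meg3 and Peg3. The windows below are shown because they hold the hexamer and belong to the genes with the largest called responses to dTAG-13. Capitals mark the hexamer, read as GCGGCA on the strand shown, and in Meg3 also TGACGTCA. They are the windows of Meg3 (chr12:109540746-109541045, plus strand), Mest (chr6:30737800-30738099, plus strand), Snrpn (chr7:60005150-60005449, minus strand) and Grb10 (chr11:12037371-12037670, minus strand).
Meg3: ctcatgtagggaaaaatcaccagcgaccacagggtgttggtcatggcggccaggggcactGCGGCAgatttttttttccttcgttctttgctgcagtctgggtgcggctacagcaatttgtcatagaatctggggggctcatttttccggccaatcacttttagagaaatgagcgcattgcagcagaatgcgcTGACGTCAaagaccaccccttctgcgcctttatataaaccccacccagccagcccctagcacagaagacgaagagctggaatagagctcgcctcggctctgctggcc
Mest: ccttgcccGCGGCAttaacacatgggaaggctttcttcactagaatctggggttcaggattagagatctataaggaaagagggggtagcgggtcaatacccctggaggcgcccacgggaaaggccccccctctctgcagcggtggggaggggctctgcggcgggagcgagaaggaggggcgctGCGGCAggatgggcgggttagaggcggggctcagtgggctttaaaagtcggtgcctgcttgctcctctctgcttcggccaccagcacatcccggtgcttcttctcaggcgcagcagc
Snrpn: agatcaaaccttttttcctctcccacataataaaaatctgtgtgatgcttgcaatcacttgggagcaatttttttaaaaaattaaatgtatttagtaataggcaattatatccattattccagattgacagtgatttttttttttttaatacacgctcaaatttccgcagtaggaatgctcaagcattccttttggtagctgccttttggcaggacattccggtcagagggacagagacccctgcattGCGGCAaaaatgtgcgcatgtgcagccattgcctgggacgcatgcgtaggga
Grb10: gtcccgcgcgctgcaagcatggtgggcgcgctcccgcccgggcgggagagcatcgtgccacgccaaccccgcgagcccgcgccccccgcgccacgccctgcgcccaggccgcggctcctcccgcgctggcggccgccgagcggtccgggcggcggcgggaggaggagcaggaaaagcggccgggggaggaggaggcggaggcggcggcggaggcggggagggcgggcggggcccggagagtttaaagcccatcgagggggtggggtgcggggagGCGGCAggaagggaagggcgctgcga
The Meg3 window carries the hexamer far upstream of the start and the response element nearer to it, and the Mest window carries the hexamer at 2 places. A match in the letters is a description and not evidence of binding.

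In mm10 coordinates with GENCODE M21 annotation, the 9 genes lie at 8 loci. Meg3 (12:109541001-109571726) and Mirg (12:109729764-109749460) are both long noncoding RNA genes on the plus strand of the Dlk1-Dio3 cluster. The RefSeq table placed 54 microRNA hairpins on that strand from the start of Meg3 to the end of Mirg, of which 14 lay inside Mirg and 1 inside Meg3. Peg10 (6:4747306-4760517) and Mest (6:30723547-30748465) lie on the plus strand of chromosome 6, Mest overlapping the antisense gene Copg2. Peg3 (7:6703892-6730431) and Snrpn (7:59982495-60140219) lie on the minus strand of chromosome 7. Snrpn shares its transcript with the same-strand gene Snurf. Grb10 (11:11930508-12038683) and Igf2r (17:12682406-12769664) are both on the minus strand, and Igf2r is crossed by its antisense noncoding RNA Airn. Impact lies on the plus strand of chromosome 18. Counts of overlapping genes may be split between partners, and whether counting used the strand is not given in the sources used here.

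All 9 genes were well measured in mES cells, with 364 to 6376 reads per gene and library. Per kilobase of the length listed in the tables, over the 18 Ctrl libraries, the order of median levels was led by Snrpn, a small nuclear ribonucleoprotein, at 107 CPM per kb (64.8 to 147). The alpha/beta hydrolase-fold gene Mest followed at 65.4 (36.5 to 102), then Impact, a regulator of the stress kinase GCN2, at 61.0 (44.0 to 115) and the retrotransposon-derived Peg10 at 49.7 (18.2 to 88.6). The ranges of these 4 overlapped. The zinc-finger gene Peg3 lay at 38.4 CPM per kb (29.5 to 54.0), Igf2r, the mannose 6-phosphate receptor that clears IGF2, at 24.4 (21.0 to 28.7), Mirg at 22.1 (15.7 to 30.8), Meg3 at 18.7 (9.66 to 24.3) and Grb10, an adaptor that dampens insulin signalling, at 17.7 (14.0 to 20.9). Neighbours in the order overlapped, except that the range of Peg3 lay above that of Igf2r. Both noncoding RNAs stood below every coding member except Grb10. Among 11935 genes with a mean of at least 30 reads, the ranks by this level ran from 603 for Snrpn to 4182 for Grb10.

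**Figure D1:**
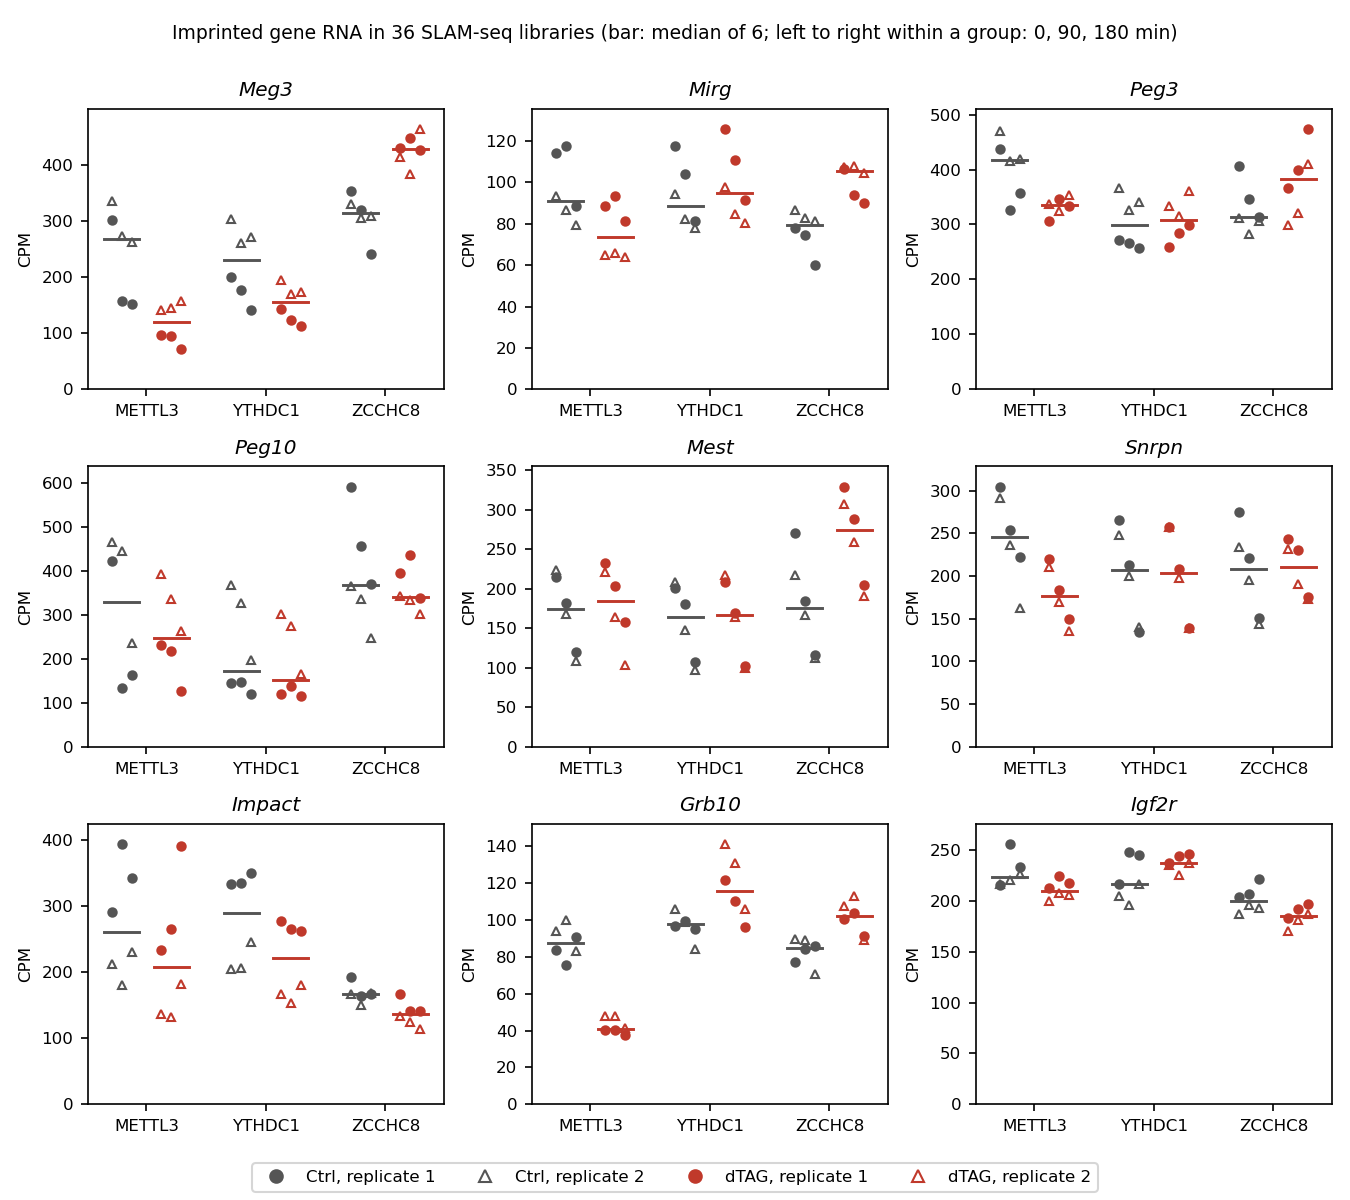
Level of the 9 imprinted genes in CPM (linear axis from 0), with 1 point per library (filled circles replicate 1, open triangles replicate 2; 0, 90 and 180 min from left to right) and a bar at the median of the 6 libraries of an arm and line. Grb10 in the METTL3 line and Meg3 and Mirg in the ZCCHC8 line are the cases in which the Ctrl (grey) and dTAG (red) libraries do not overlap.

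In the METTL3 line 3 of the 9 genes, Grb10, Meg3 and Snrpn, fell after dTAG-13 and none rose. Grb10 fell by 1.04 on the log2 scale, Meg3 by 1.03 and Snrpn by 0.45. Of 14658 genes tested, 8.73% were called lower and 11.2% higher at an adjusted p under 0.05 (edgeR quasi-likelihood test over all genes). The median log2 fold change of the 9 was -0.31, against 0.0057 over all genes tested.

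Grb10 ranged from 75.5 to 100 CPM (median 87.2) in the 6 METTL3 Ctrl libraries and from 37.6 to 48.0 (median 40.7) in dTAG. Every dTAG library lay below every Ctrl library, and how many of all genes did so was not counted. The log2 fold change was -1.04 (SE 0.12, edgeR adjusted p = 0.000246), and the ratio within each of the 6 pairs of the same replicate and chase time lay between -1.27 and -0.90. Unlabelled and labelled Grb10 RNA were lower alike at 0 min, at -1.06 and -0.86 for unlabelled and -1.06 and -1.21 for labelled RNA in replicates 1 and 2 (log2 dTAG over Ctrl).

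Meg3 ranged from 152 to 335 CPM (median 268) in METTL3 Ctrl and from 72.2 to 157 (median 119) in dTAG. The arms overlapped over both replicates, but Meg3 was lower in dTAG in all 6 pairs, by 0.74 to 1.63. The log2 fold change was -1.03 (SE 0.25, edgeR adjusted p = 0.0153). Labelled and unlabelled Meg3 were lower in all 6 pairs. Mirg, at the far end of the same cluster, moved less. It measured 79.2 to 117 CPM (median 90.9) in Ctrl and 63.8 to 93.5 (median 73.6) in dTAG, lower in 6 of 6 pairs, and did not pass the test (log2 fold change -0.32, SE 0.13, edgeR adjusted p = 0.102).

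Snrpn ranged from 162 to 304 CPM (median 245) in METTL3 Ctrl and from 136 to 220 (median 177) in dTAG. The ranges overlapped, the level also fell along the chase, and every pair was lower in dTAG. The log2 fold change was -0.45 (SE 0.09, edgeR adjusted p = 0.00625). Its unlabelled RNA at 0 min was lower by -0.60 and -0.54, whereas labelled RNA stood at 0.01 and -0.17. The other coding members did not pass. Log2 fold changes were -0.27 for Peg3 (SE 0.11, edgeR adjusted p = 0.121), -0.31 for Impact (SE 0.27, 0.456), -0.20 for Peg10 (SE 0.31, 0.708), -0.10 for Igf2r (SE 0.08, 0.406) and 0.11 for Mest (SE 0.11, 0.530).

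With replicate as a block, 3504 of 14658 genes were called lower in the METTL3 line and 3555 higher. In that fit 6 members were lower, Mirg (edgeR adjusted p = 0.0016), Peg3 (0.0123) and Impact (0.00628) joining the others. With the 3 chase libraries of each arm and replicate summed, no member passed (edgeR adjusted p = 0.466 for Grb10, 0.537 for Meg3 and 0.66 for Snrpn). In that fit 0 of 15894 genes were called, and 1434 had an unadjusted p under 0.05 (edgeR). All 3 calls held without the Ctrl library that stood apart.

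In the YTHDC1 line none of the 9 genes passed the edgeR threshold, and 2 had an unadjusted p under 0.05, Meg3 and Grb10. Over 14442 genes, 2.41% were called higher and 2.69% lower. Meg3 measured 140 to 303 CPM (median 230) in Ctrl and 112 to 194 (median 156) in dTAG. The ranges overlapped, and each of the 6 pairs was lower in dTAG, by 0.32 to 0.65 (log2 fold change -0.56, SE 0.20, edgeR adjusted p = 0.148). Grb10 measured 83.9 to 106 CPM (median 97.8) in Ctrl and 95.9 to 141 (median 116) in dTAG and was higher in 6 of 6 pairs (log2 fold change 0.28, SE 0.08, edgeR adjusted p = 0.0616). Impact, at 206 to 350 CPM in Ctrl and 154 to 277 in dTAG, was lower in 6 of 6 pairs (log2 fold change -0.35, SE 0.20, edgeR adjusted p = 0.378).

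These 3 genes passed once replicate was a block: Meg3 at -0.54 (edgeR adjusted p = 3.75e-07), Impact at -0.36 (4.55e-06) and Grb10 at 0.28 (0.000583). In that fit 1883 of 14442 genes were called higher and 2005 lower. With the 3 chase libraries of each arm and replicate summed, 0 of 15512 genes were called in this line (edgeR), and 698 had an unadjusted p under 0.05. The remaining 6 had log2 fold changes between -0.22 (Peg10) and 0.11 (Igf2r), and Snrpn was at 0.01 (SE 0.06).

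In the ZCCHC8 line 4 of the 9 genes rose after dTAG-13, Mest, Meg3, Mirg and Grb10, and Impact fell. Over 14227 genes, 20.1% were called higher and 19.5% lower, so calls were common in this line. The median log2 fold change of the 9 was 0.24, against -0.0030 over all genes, and that of the 2 noncoding members was 0.48.

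For both noncoding RNAs the arms did not overlap. How many of all genes had arms that did not overlap was not counted in any line. Meg3 measured 242 to 354 CPM (median 313) in the 6 Ctrl libraries and 384 to 463 (median 428) in dTAG, a difference of 0.51 in log2 (SE 0.06, edgeR adjusted p = 2.78e-06). Mirg measured 60.0 to 86.6 CPM (median 79.5) in Ctrl and 90.1 to 108 (median 105) in dTAG, which is 0.44 higher (SE 0.06, edgeR adjusted p = 7.09e-06). Each was higher in 6 of 6 pairs. At 0 min the rise was larger in unlabelled than in labelled RNA for both. Unlabelled Meg3 was higher by 0.43 and 0.52 in the replicates and labelled Meg3 by 0.06 and 0.05, and for Mirg these were 0.86 and 1.00 against 0.31 and 0.12.

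Mest had the largest change, from 113 to 271 CPM (median 176) in Ctrl to 191 to 329 (median 274) in dTAG. Its ranges overlapped across chase times, but it was higher in every pair, by 0.28 to 0.82 (log2 fold change 0.64, SE 0.06, edgeR adjusted p = 2.95e-08). Copg2, which overlaps Mest on the other strand, moved the other way, at -0.39 (edgeR adjusted p = 7.48e-06). Grb10 measured 70.7 to 89.6 CPM (median 84.8) in Ctrl and 88.8 to 113 (median 102) in dTAG, 0.32 higher in log2 (SE 0.06, edgeR adjusted p = 5.83e-05). Its ranges overlapped at the lowest dTAG library (88.8), which lay below the 2 highest Ctrl libraries.

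Impact was the member called lower, at 151 to 193 CPM (median 167) in Ctrl and 114 to 167 (median 138) in dTAG. It was lower in 6 of 6 pairs with overlapping ranges (log2 fold change -0.26, SE 0.06, edgeR adjusted p = 0.0025), and missed the threshold when chase libraries were summed (0.0518). Peg3 was at 0.24 (SE 0.12, edgeR adjusted p = 0.130), which passed with replicate as a block (0.0463). Snrpn (0.09, SE 0.06), Igf2r (-0.08, SE 0.05) and Peg10 (-0.08, SE 0.17) did not pass.

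**Figure D2:**
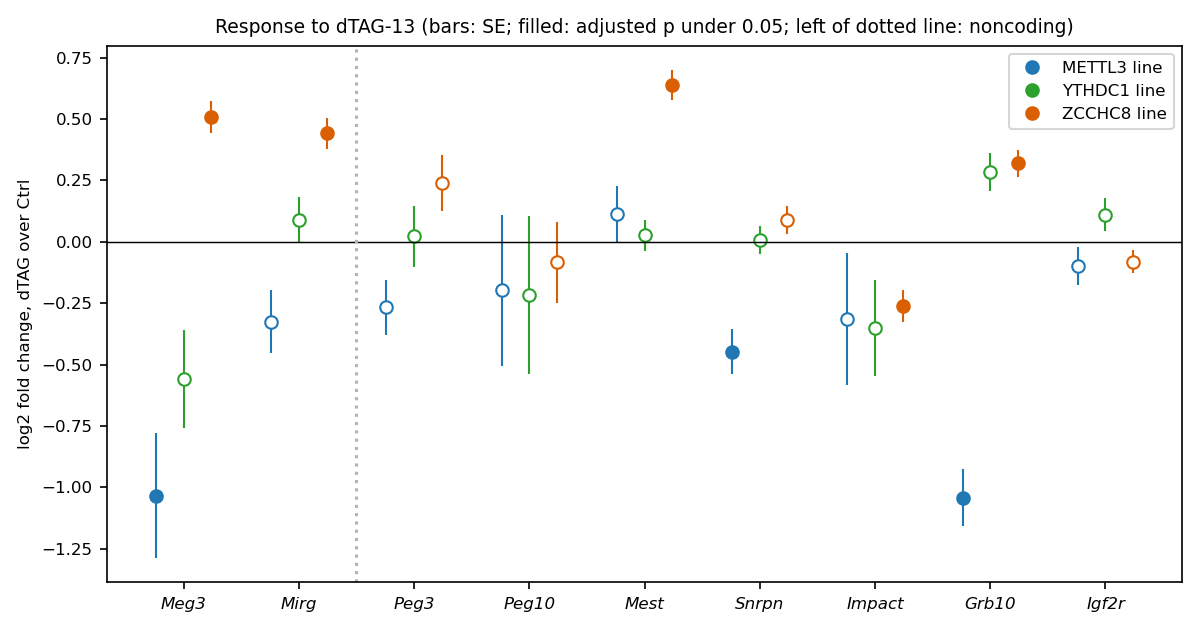
Log2 fold change of dTAG over Ctrl for each imprinted gene in the 3 degron lines, with bars of 1 SE from the edgeR fit, filled where the adjusted p was under 0.05; noncoding genes are left of the dotted line. Meg3 and Grb10 lie at -1.03 and -1.04 in the METTL3 line and at 0.51 and 0.32 in the ZCCHC8 line.

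Whether a gene responded differently between lines was tested as an interaction over all 36 libraries (edgeR, 14677 genes). Between ZCCHC8 and METTL3, 6 members differed, against 24% of all genes, and all 6 had the higher response in the ZCCHC8 line. They were Meg3 (difference 1.51, SE 0.29, adjusted p = 0.000266), Grb10 (1.33, SE 0.12, 3.97e-09), Mirg (0.74, SE 0.15, 0.00035), Snrpn (0.51, SE 0.10, 0.0002), Mest (0.50, SE 0.12, 0.00198) and Peg3 (0.48, SE 0.17, 0.0406). Peg3 no longer passed without replicate 2 (0.0942).

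Between METTL3 and YTHDC1, 4 members differed, against 21.2% of genes, all with the lower response in the METTL3 line. Grb10 differed by -1.34 (SE 0.12, edgeR adjusted p = 4.71e-09), Snrpn by -0.47 (SE 0.10, 0.000602), Mirg by -0.43 (SE 0.14, 0.0305) and Igf2r by -0.23 (SE 0.08, 0.0372). Without the Ctrl library that stood apart, Mirg was at -0.38 and no longer passed (edgeR adjusted p = 0.0688). Without replicate 2, Igf2r was at -0.14 (0.386). For Meg3 the difference was -0.49 (SE 0.29, 0.251), which passed with the block (-0.53, edgeR adjusted p = 0.00448), as Peg3 did (-0.31, 0.0121).

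Between ZCCHC8 and YTHDC1, 3 members differed, against 14.3% of genes: Meg3 by 1.02 (SE 0.29, edgeR adjusted p = 0.0157), Mest by 0.57 (SE 0.12, 0.00113) and Igf2r by -0.24 (SE 0.08, 0.0409). The Igf2r difference was -0.16 without replicate 2 and did not pass (0.397). Mirg joined with the block (0.31, edgeR adjusted p = 0.00308). The comparisons share the libraries of a line pairwise, so the 3 sets of differences are not independent of each other.

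The 3 clones were also compared in their Ctrl libraries, 6 per clone (edgeR, 14003 genes). Deviations of same-numbered libraries from their group means correlated at 0.559 to 0.907 between METTL3 and YTHDC1. Between either line and ZCCHC8 they correlated at -0.0699 to 0.215. Differences of ZCCHC8 from the other lines can thus also hold differences between repeats, which cannot be told apart from the clone. Impact was lower in Ctrl of the ZCCHC8 line (clone Z12H) than in the other lines. Impact measured 151 to 193 CPM there (median 167), 181 to 394 in METTL3 Ctrl (median 261) and 206 to 350 in YTHDC1 Ctrl (median 290). The ZCCHC8 range lay below that of YTHDC1 and overlapped that of METTL3. The difference was -0.68 from YTHDC1 (SE 0.17, edgeR adjusted p = 0.021) and -0.66 from METTL3 (SE 0.17, 0.0112). It was called without either replicate, but its size differed: without replicate 1 it was -0.41 and -0.34, and without replicate 2 it was -0.89 in both comparisons.

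Snrpn was higher in METTL3 Ctrl than in YTHDC1 Ctrl by 0.32 (SE 0.08, edgeR adjusted p = 0.0363) and lower in ZCCHC8 than in METTL3 by -0.24 (SE 0.08, 0.0245). Mest was higher in ZCCHC8 than in YTHDC1 by 0.21 (SE 0.07, 0.0496), and Mirg lower in ZCCHC8 than in METTL3 by -0.28 (SE 0.09, 0.0295). Thus 1, 2 and 3 members differed for METTL3 minus YTHDC1, ZCCHC8 minus YTHDC1 and ZCCHC8 minus METTL3, where 2.49%, 13.8% and 31.2% of all genes did. Without the library that stood apart, the METTL3 minus YTHDC1 call of Snrpn (adjusted p = 0.0648) and the Mirg call (0.0688, edgeR) were lost. Without replicate 1, Mirg was at -0.04 (0.668). Meg3, from the cluster known to vary between clones, was higher in ZCCHC8 than in YTHDC1 by 0.49 without passing (SE 0.19, edgeR adjusted p = 0.0864).

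Replicates of one clone also split at some of these genes. In the YTHDC1 line, Peg10 measured 115 to 147 CPM in the 6 libraries of replicate 1 and 165 to 368 in those of replicate 2. Impact measured 263 to 350 CPM in replicate 1 and 154 to 246 in replicate 2 there, and 234 to 394 against 132 to 231 in the METTL3 line. Peg3 measured 257 to 300 against 316 to 366 CPM in the YTHDC1 line. In these 4 cases the replicates did not overlap whatever the arm. Without the METTL3 Ctrl 0 min libraries, those of Peg10 in the METTL3 line did not overlap either (log2 of replicate 2 over 1, 0.94). How many of all genes split in this way was not counted. In the ZCCHC8 line all 9 genes overlapped between replicates.

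The tables also hold, for each gene, a new-to-total ratio (MAP, the maximum of its posterior), the estimated share of its RNA made during labelling. It was estimated in each table separately. Every member had at least 30 reads in all 36 libraries, and the widest 5 to 95% credible interval of a member ran from 0.0403 (Peg3) to 0.0951 (Grb10). At the end of the pulse, over the 6 Ctrl libraries of 0 min, Mirg had the highest share, at a median of 0.799 (0.745 to 0.829). Impact followed at 0.473, Meg3 at 0.445 (0.416 to 0.468), Peg3 at 0.323, Mest at 0.285, Grb10 at 0.280 and Igf2r at 0.202. Snrpn had 0.178 (0.131 to 0.180) and Peg10 0.124 (0.0982 to 0.147). The median over 9864 genes was 0.600, so 8 of the 9 imprinted genes lay below it and Mirg above. Only 1.25% of genes had a lower share than Peg10.

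The chase separated the genes further. Mirg lost label in all 12 series (3 lines, 2 arms, 2 replicates). In METTL3 Ctrl its MAP ratio fell from 0.799 ± 0.026 (SD, n = 2) at 0 min to 0.518 ± 0.078 at 90 and 0.323 ± 0.055 at 180 min. The share left at 180 min, as a percent of that at 0 min, had a median of 39.9% over the 12 series (24.7 to 58.8%), and 6.69% of 9864 genes had less left on average. Meg3, from the same cluster, kept a median of 97.7% (72.0 to 111%), higher at 180 min in 5 of 12 series. Impact kept 104% (60.2 to 169%) and Peg3 129% (93.5 to 166%). Grb10 kept 137% (94.4 to 179%), higher at 180 min in 11 of 12 series, where 29.7% of genes were higher in at least 10. When each gene was given by its mean over the 12 series instead, the all-gene median was 87.2%.

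For Peg10, Mest, Snrpn and Igf2r the estimated share was higher after 180 min of chase than before it in all 12 series, as it was for 18.2% of 9864 genes. In METTL3 Ctrl, Mest went from 0.306 ± 0.019 to 0.513 ± 0.044 (SD, n = 2) and Snrpn from 0.179 ± 0.0001 to 0.308 ± 0.044. The median share left was 188% for Snrpn (144 to 243%), 182% for Mest (143 to 218%), 151% for Peg10 (106 to 171%) and 135% for Igf2r (102 to 214%). By the mean over the 12 series, Snrpn stood above 99.2% of genes and Mest above 98.4%.

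The rise went with a fall in level for 3 of these genes. At 180 min Mest kept a median of 50.6% of its CPM, Snrpn 59.0% and Peg10 64.9%, each lower in 12 of 12 series, whereas Igf2r kept 105% and fell in none. The T-to-C conversion rate in reads, from which the share is estimated, also rose in all 12 series for Mest, Snrpn and Peg10, and for Igf2r in 4. Multiplying the 2 measures, labelled CPM left was 91.8% for Mest, 109% for Snrpn and 97.2% for Peg10, 149% for Igf2r (104 to 233%), and 33.9% for Mirg, against an all-gene median of 86.7%. CPM is relative to the TMM-adjusted total of a library. The share is relative to the other RNA of the same gene, so neither is an absolute amount. The mismatch limit set in alignment (0.06 of the read length) can remove heavily converted reads, and its part in these values was not tested.

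**Figure D3:**
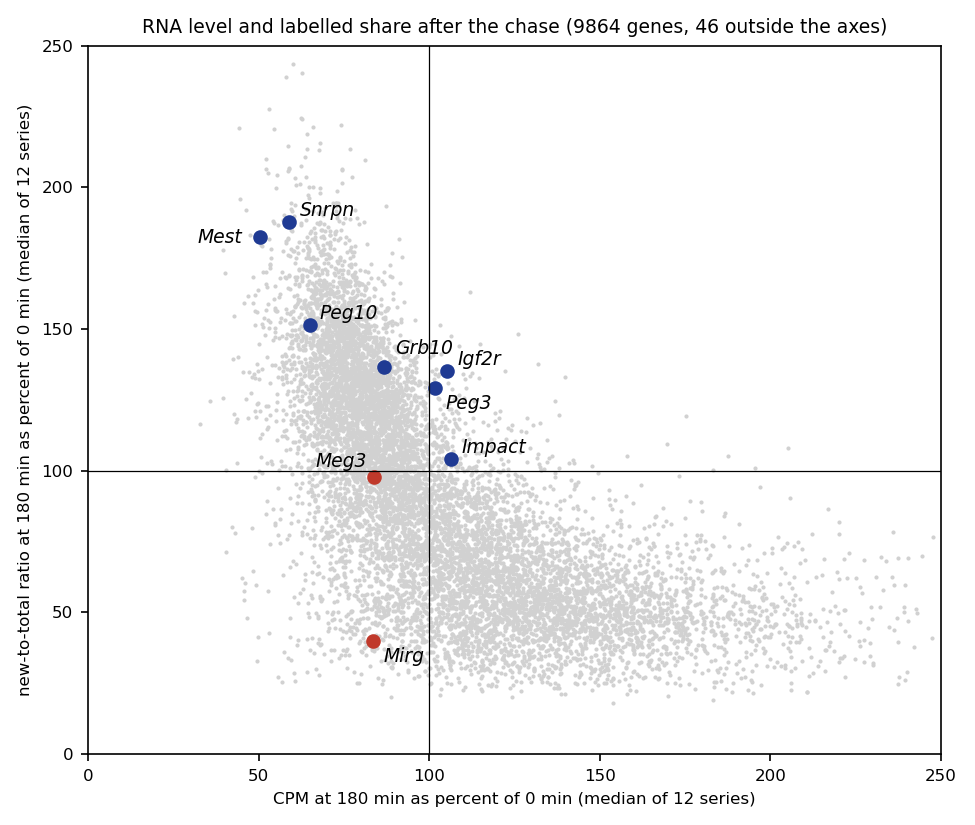
Level (horizontal axis, CPM) and new-to-total ratio (vertical axis) at 180 min, each as a percent of its value at 0 min and as the median of 12 series, for 9864 genes (grey, 46 outside the axes), with coding members in blue and noncoding ones in red. Mest and Snrpn lie at the upper left, at 50.6 and 59.0% of CPM and 182 and 188% of the ratio, and Mirg low, at 39.9% of the ratio.

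**Figure D4:**
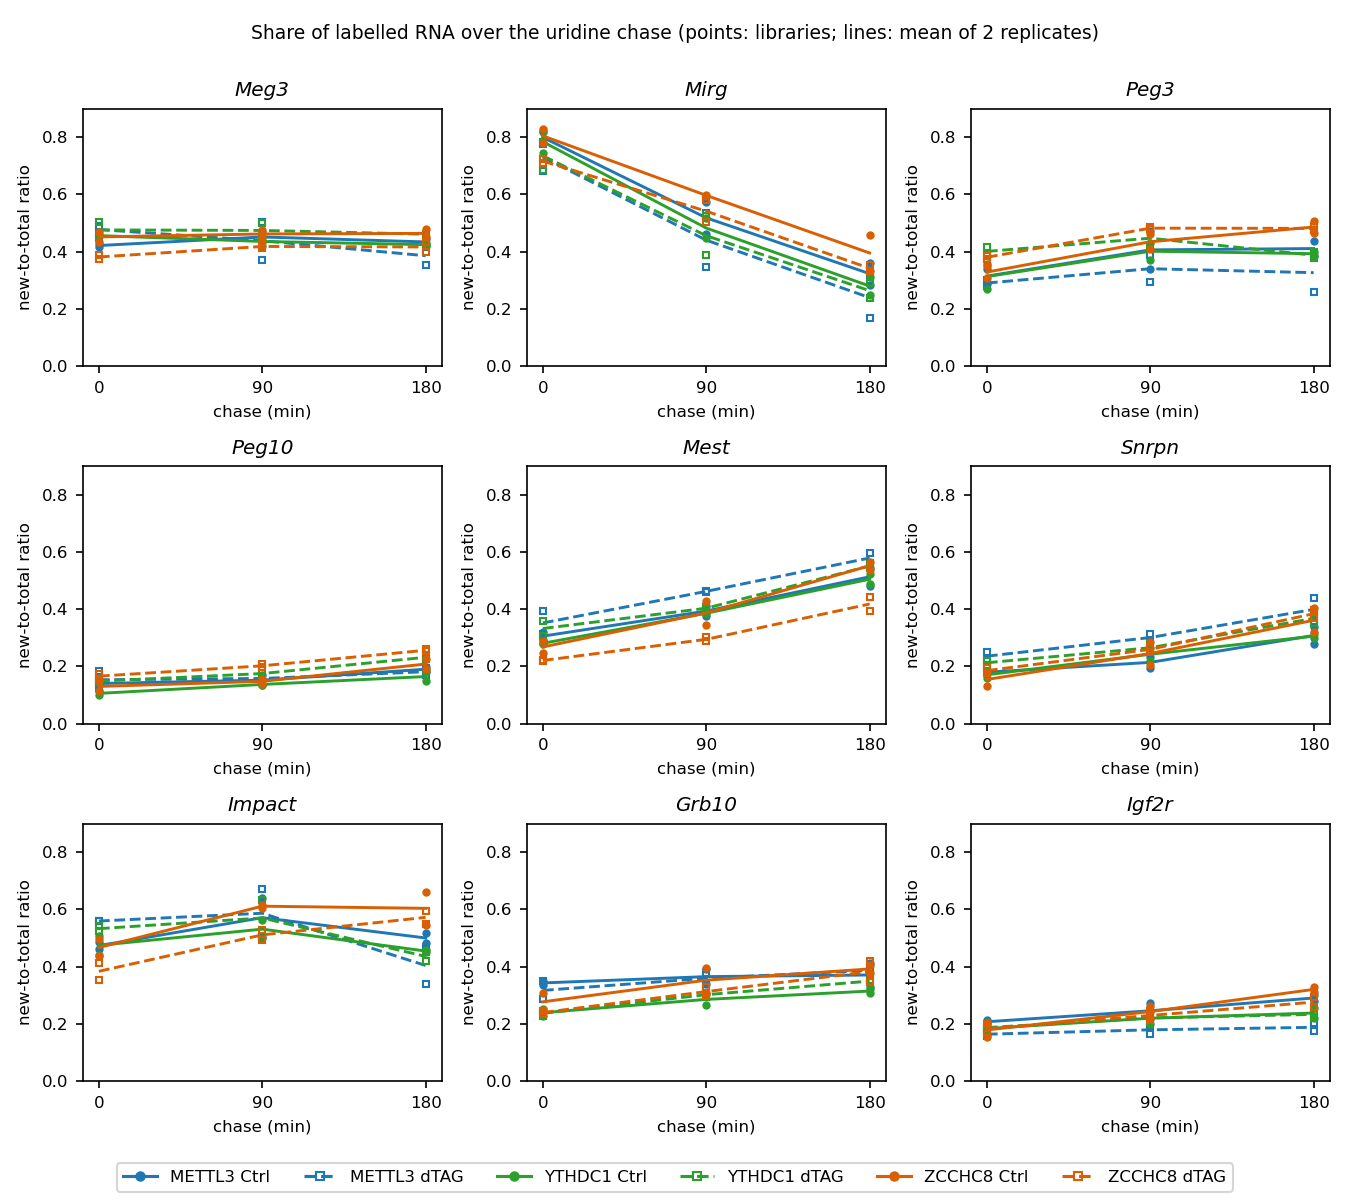
New-to-total ratio of each imprinted gene at 0, 90 and 180 min of uridine chase, with 1 point per library and a line through the mean of the 2 replicates of each line (colour) and arm (solid and filled for Ctrl, dashed and open for dTAG). Mirg falls in every line and arm, and Meg3 lies between 0.354 and 0.504. The mean lines of Mest, Snrpn, Peg10, Igf2r and Grb10 end higher than they began.

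Label share was compared between arms by limma on log2 of the MAP ratio, with chase time as a factor. In the METTL3 line 22.6% of 10710 genes were called, 220 higher and 2205 lower, about an all-gene median of -0.15. After each library was centred on its own median the calls were 1910 higher and 881 lower, so values are given on both scales. Snrpn RNA had a higher labelled share in dTAG. Its MAP ratio was 0.179 to 0.339 (median 0.214) in Ctrl and 0.221 to 0.439 (median 0.301) in dTAG. It was higher in 6 of 6 pairs, at 0.42 (SE 0.09, limma adjusted p = 0.00446) and, centred, 0.64 (4.3e-05). Igf2r had a lower share, 0.200 to 0.299 (median 0.246) in Ctrl and 0.157 to 0.202 (median 0.172) in dTAG, at -0.47 (SE 0.09, limma adjusted p = 0.00234) and, centred, -0.26 (0.014).

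Mest passed only when centred (0.42, limma adjusted p = 0.00163, against 0.20 and 0.0987 uncentred). With replicate as a block and no centring, Peg3 (-0.24, limma adjusted p = 0.0401) and Mirg (-0.29, 0.0483) were also called lower. In that fit 2934 of 10710 genes were called lower. Centred, without the block, Peg3 and Mirg were at -0.02 (SE 0.08) and -0.08 (SE 0.11) and did not pass. Meg3 and Grb10, whose level fell most, did not pass on either scale: both were at -0.02 uncentred (SE 0.10 and 0.09) and centred at 0.20 (SE 0.07, limma adjusted p = 0.0656) and 0.19 (SE 0.07, 0.0566).

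In the YTHDC1 line 0.118% of 10982 genes passed, and Peg10 was among them. Its MAP ratio was 0.0982 to 0.181 (median 0.137) in Ctrl and 0.147 to 0.237 (median 0.175) in dTAG. The share was higher in 6 of 6 pairs with overlapping ranges, at 0.45 (SE 0.07, limma adjusted p = 0.0246), and missed the threshold once centred (0.0532). In the ZCCHC8 line 0.337% of 10075 genes passed, Mest among them. Its ratio was 0.247 to 0.565 (median 0.387) in Ctrl and 0.220 to 0.441 (median 0.294) in dTAG, lower in 6 of 6 pairs, at -0.35 (SE 0.07, limma adjusted p = 0.0471), and missed the threshold once centred (0.128). Peg10 in that line, higher in 6 of 6 pairs, was at 0.37 (SE 0.07, limma adjusted p = 0.0583). Meg3 was lower in 6 of 6 pairs, at -0.18 (SE 0.05, limma adjusted p = 0.134).

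Label loss, the change of the arm difference along the chase, differed for 0 of the 9 genes in each line (limma), and none had an unadjusted p under 0.05. Over all genes 0.205% were called with METTL3 tagged and 0% with YTHDC1 or ZCCHC8 tagged. The estimates, in log2 per hour, ran from -0.19 (Impact, SE 0.10) to 0.06 (Grb10, SE 0.08) in METTL3, from -0.13 (Peg3, SE 0.08) to 0.05 (Grb10, SE 0.06) in YTHDC1 and from -0.09 (Igf2r, SE 0.07) to 0.07 (Impact, SE 0.07) in ZCCHC8. Mirg, which lost most label, had -0.12 (SE 0.12), 0.00 (SE 0.08) and -0.01 (SE 0.07). Centred on library medians, Impact in the METTL3 line passed, at -0.22 (limma adjusted p = 0.0152).

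Of 66 other imprinted genes listed by symbol, 58 were in all tables and 51 or 52 passed the filter on low counts in a line. In the METTL3 line 7 of 52 rose and 6 fell, with a median of -0.0031, where 11.2% of all genes rose and 8.73% fell. The largest rises were those of Tspan32 (1.30, from a median of 0.976 to 2.36 CPM), the growth factor Igf2 (1.20, 1.90 to 3.93 CPM) and Peg12 (1.18, 3.28 to 7.15 CPM), all at low levels. The largest falls were those of Nnat, a small membrane proteolipid (-0.93, 6.98 to 3.29 CPM), Trappc9 (-0.86, 19.5 to 9.80 CPM) and the receptor tyrosine kinase Axl (-0.70, 9.09 to 5.77 CPM). Trappc9 was not called without the Ctrl library that stood apart. These 6 were not called when chase libraries were summed, a fit in which 0 of 15894 genes were called.

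In the YTHDC1 line, where 2.41% of all genes rose and 2.69% fell, 2 of 52 rose, Nap1l5 (0.83) and Ndn (0.49, from 27.4 to 37.6 CPM), and 1 fell, Usp29 (-0.36, edgeR adjusted p = 0.0493). The Usp29 call was lost without replicate 2 and without the filter, and these 3 were not called when chase libraries were summed. In the ZCCHC8 line 13 of 51 rose and 8 fell, with a median of 0.09, where 20.1% of all genes rose and 19.5% fell. Cdkn1c, an inhibitor of cyclin-dependent kinases, rose by 1.50 from a median of 18.3 to 51.9 CPM (SE 0.10, edgeR adjusted p = 1.07e-09). Tspan32 rose by 1.38 (1.32 to 3.58 CPM) and Magel2, of the same chromosomal cluster as Snrpn, by 1.34 (7.16 to 16.5 CPM). The arms did not overlap for Cdkn1c, Tspan32 or Magel2, and how many of all genes did so was not counted. Trappc9 (-0.57), Cobl (-0.53) and Copg2 (-0.39) fell most, and Cobl was not called when chase libraries were summed.

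**Figure D5:**
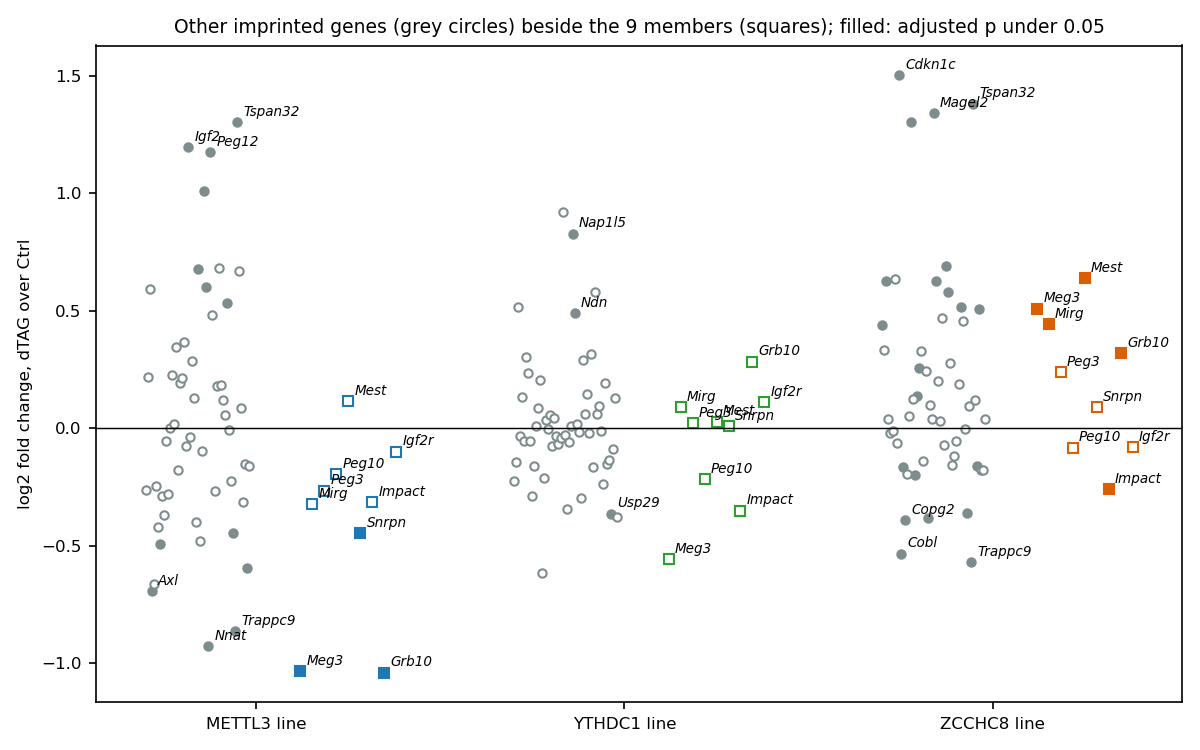
Log2 fold change of dTAG over Ctrl in each degron line for the other imprinted genes tested (grey circles) and the 9 members (squares), 1 point per gene, filled where the edgeR adjusted p was under 0.05. Cdkn1c, Tspan32 and Magel2 in the ZCCHC8 line, at 1.50, 1.38 and 1.34, lie above all 9 members.

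Between clones, Plagl1, a zinc-finger regulator of other imprinted genes, was higher in ZCCHC8 Ctrl than in YTHDC1 Ctrl (1.28, a median of 22.1 against 8.15 CPM) and METTL3 Ctrl (1.17, 22.1 against 10.2). Dio3, at the far end of the cluster of Meg3, was higher there too (0.91 and 0.83, 15.8 CPM against 7.82 and 9.06). Klf14 (1.01) and Magel2 (0.97) were also higher than in YTHDC1, Klf14 at no more than 1.58 CPM and not called without replicate 2 or in dTAG libraries. Against METTL3 Ctrl, Tssc4 was higher (0.52) and Snurf lower (-0.62, edgeR adjusted p = 0.000941), and neither was called in dTAG libraries. METTL3 Ctrl exceeded YTHDC1 Ctrl for Usp29 (0.52), Sfmbt2 (0.46), Snurf (0.39) and Inpp5f (0.35). Of these 4, all were lost without replicate 2, and all but Sfmbt2 without the library that stood apart. Snurf shares its transcript with Snrpn, and both were highest in METTL3 Ctrl.

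Among 13 factors that protect or write imprints, such as ZFP57, TRIM28 and DNMT1, 8 rose and none fell in the ZCCHC8 line (median 0.24), against 20.1% and 19.5% of all genes. With METTL3 tagged, 2 rose and 2 fell (11.2% and 8.73% of all genes), and with YTHDC1 tagged, 1 fell (2.69%). In those lines no gene was called when chase libraries were summed. Setdb1 and Zfp57 were the ones that rose and Dnmt3b and Dnmt3l the ones that fell in the METTL3 line, and Dnmt3a fell in the YTHDC1 line. These names were chosen after their values were seen. Summed levels of 15 differentiated cell markers were 80.3 to 176 CPM in METTL3 Ctrl and 102 to 222 in dTAG, 63.2 to 141 and 50.0 to 118 in YTHDC1, and 112 to 173 and 142 to 179 in ZCCHC8. Of these markers 3 of 12 tested were called higher in the METTL3 line (with a median of 0.49 in log2), 0 of 11 where YTHDC1 was tagged (-0.03, with 2 at an unadjusted p under 0.05, edgeR) and 6 of 11 in the ZCCHC8 line (0.52), and none was called lower. Their part in the changes of imprinted genes was not tested.

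Over the 36 libraries, the 5 genes whose levels followed Meg3 most closely were Nos1 (Pearson r = 0.942), Plk5 (0.940), Rasgrp4 (0.931), Tkfc (0.931) and Rfxank (0.923), among 13673 genes. For Peg3, the coding member with the most reads, the 4 closest were Braf (0.806), Rbm27 (0.800), Mbtd1 (0.794) and Nrk (0.737). These libraries share clones, arms and replicates, and the correlations are descriptions only.

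GGACT, the most frequent form of the m6A consensus, was counted in 1 transcript per gene. Its density was 1.57 per kb in Mirg, 1.38 in Grb10 (7 matches), 1.35 in Igf2r, 1.10 in Meg3 (16 matches), 1.04 in Peg3, 0.600 in Peg10, 0.375 in Mest and 0.266 in Impact, and Snrpn had 0 matches. The median over 17003 genes was 1.04. Grb10 and Meg3, the members with the largest falls in the METTL3 line, lay above this median, Meg3 above 53.8% of genes. Mirg and Igf2r, which were not called there, also lay above it. Snrpn, which also fell there, had no match. A relation of the density to the response was not tested. A match of these letters does not show that a site is methylated.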

How the data were processed

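SLAM-seq libraries of 36 samples (TruSeq stranded total RNA, paired ends) were processed by the authors, who discarded reads from rRNA, aligned the rest to mm10 with STAR 2.5.2b (unique, end to end, mismatches up to 0.06 of the read length) and ran GRAND-SLAM on 6 tables, 1 per line and replicate. The deposited tables hold read counts per gene, the MAP new-to-total ratio as a fraction with its 5% and 95% bounds, and T-to-C conversion counts and coverage. The GRAND-SLAM version, the annotation release and the use of strand are not given in the sources used here. Of the columns, 252 were used, and 180 other per-sample columns were not.

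Counts were tested with edgeR 4.0.16 (R 4.3.3; TMM, filterByExpr, quasi-likelihood) with chase time as a factor, and log2 MAP ratios with limma 3.58.1, keeping genes whose reads numbered 30 or more, and whose ratio reached 0.02, throughout a line. Benjamini-Hochberg adjustment ran over all genes tested, with a threshold of 0.05. Label loss is the interaction of arm and hours of chase. The members and lists were chosen with earlier results of these data known. Named genes were all members, the 3 largest rises and falls among other imprinted genes in each line, the 4 largest differences between clones, and the 5 genes most correlated with Meg3 and Peg3 (log2 of CPM + 1, mean of at least 1 CPM), of which 1 is not reported here.

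Replicate numbers marked separate tables, the wells of a replicate came from one batch of cells per the study's methods, and deviations of same-numbered libraries from their group means correlated at 0.738 to 0.871 in the METTL3 line, 0.806 to 0.868 in YTHDC1 and 0.288 to 0.319 in ZCCHC8, so the numbers pair the samples within a line. Between METTL3 and YTHDC1 these correlations were 0.559 to 0.907, and between either line and ZCCHC8 -0.0699 to 0.215. On simulated counts with 198 to 200 changed genes (log2 change of 1), the test recovered 56.1% in METTL3 (14392 genes), 78.5% in YTHDC1 (14274 genes) and 96% in ZCCHC8 (13787 genes). The simulated libraries were independent and shared no replicate effect, unlike the real ones, and smaller changes in counts were not simulated. These rates therefore do not give the power for the smaller changes reported here. Alternatives were DESeq2 1.42.0, no filter, a replicate block, each replicate left out, chase libraries summed, at least 100 reads, posterior means, centred ratios, dTAG libraries in place of Ctrl, and, chosen after seeing the data, the fits without the METTL3 Ctrl library that stood apart. Intervals of the ratio cover counting error only. Promoter windows came from RefSeq (GRCm38.p6).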

Additional observations from a re-analysis of the deposited data

Results flagged for a closer look

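Responses to dTAG-13 that differed between lines by the edgeR interaction test were marked for a closer look, as log2 differences. For METTL3 minus YTHDC1 they were those of Grb10 (-1.34), Snrpn (-0.47), Mirg (-0.43) and Igf2r (-0.23). For ZCCHC8 minus YTHDC1 they were those of Meg3 (1.02), Mest (0.57) and Igf2r (-0.24). For ZCCHC8 minus METTL3 they were those of Meg3 (1.51), Grb10 (1.33), Mirg (0.74), Snrpn (0.51), Mest (0.50) and Peg3 (0.48). The comparison of the most extreme sample of a group with the rest of it needs at least 4 samples and was not run, since groups held 2.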

How the results depend on the processing

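Of 436 alternative values for single genes, 326 kept their direction and side of the threshold, 65 passed it newly, 30 no longer passed and 15 changed sign. Read totals were lowest in the ZCCHC8 line, and with 2 replicates each spread is poorly known; the cause of the shifts below was not tested. Members called in the METTL3 response (3) became 6 with the replicate block and 0 with chase libraries summed, and 3 to 6 with a replicate left out. In YTHDC1 (0) they became 1 by DESeq2, 3 with the block and 2 to 5 with a replicate left out, and in ZCCHC8 (5) 6 with the block and 5 to 8 with a replicate left out. METTL3 minus YTHDC1 responses (4) gave 2 without the filter and 6 with the block, and ZCCHC8 minus YTHDC1 (3) gave 4 with the block and 2 to 6 with a replicate left out. Among clone baselines, METTL3 minus YTHDC1 (1) gave 2 by DESeq2, 0 without the filter, 2 with the block, 0 to 4 with a replicate left out, 3 in dTAG libraries and 0 without the library that stood apart. ZCCHC8 minus YTHDC1 (2) gave 1 without the filter, 4 with the block, 5 with either replicate left out and 6 in dTAG libraries. ZCCHC8 minus METTL3 (3) gave 6 with the block, 4 to 7 with a replicate left out and 7 in dTAG libraries. Label share calls became 4 with the block in METTL3 (2) and 0 with either replicate left out in every line. They became 0 when centred in YTHDC1 and ZCCHC8 (1 each), and 2 at 100 reads or more in ZCCHC8. Label loss in METTL3 gave 1 when centred. The block changed no other call.

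With a replicate left out, the Peg10 response ran from -0.226 to 0.10 in the ZCCHC8 line (called at 0.10) and from -0.0934 to 0.367 in ZCCHC8 minus YTHDC1. Other changes of sign were in clone baselines. In dTAG libraries METTL3 minus YTHDC1 was -0.37 for Mirg, -0.15 for Snrpn and -0.18 for Igf2r, and ZCCHC8 minus YTHDC1 0.11 for Mirg. There, ZCCHC8 minus METTL3 was 0.47 for Mirg, 0.23 for Peg3, 0.29 for Snrpn and 1.30 for Grb10. With a replicate left out, Igf2r ran from -0.0181 to 0.112 in METTL3 minus YTHDC1 and Peg3 from -0.175 to 0.482 in ZCCHC8 minus YTHDC1. ZCCHC8 minus METTL3 ran from -0.519 to 0.0032 for Peg3, -0.228 to 1.17 for Peg10 and -0.14 to 0.0623 for Grb10.

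Over all genes, calls rose with the block from 2920 to 7059 in METTL3, 737 to 3888 in YTHDC1, 3106 to 6454, 2099 to 4768 and 3525 to 6494 for the differences METTL3 minus YTHDC1, ZCCHC8 minus YTHDC1 and ZCCHC8 minus METTL3, and 348 to 865, 1933 to 5248 and 4365 to 6684 for the clone baselines in that order. Without 1 replicate they were 5764 to 7524 in METTL3, 1368 to 3483 in YTHDC1 and as low as 3510 in ZCCHC8 (5628), and without replicate 1 the differences gave 6485, 4356 and 6321. Clone baselines gave 146 to 2156, 4368 to 5605 and up to 6603 with a replicate left out, and 5625, 6133 and 7747 in dTAG libraries. DESeq2 gave 1158 in YTHDC1 and 650 for the first baseline, which had 206 without the library that stood apart. With chase libraries summed, METTL3 and YTHDC1 gave 0. Label share calls were 0 with either replicate left out, against 2425, 13 and 34 in METTL3, YTHDC1 and ZCCHC8. In YTHDC1 they were 56 at 100 reads, 38 centred and 24 with the block, and in ZCCHC8 98 and 21. Label loss calls in METTL3 (22) were 769 centred, 48 with the block and 39 without replicate 2, and 0 to 6 elsewhere with a replicate left out.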
